A study of Mus musculus with 30 samples.

Results

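The genes described here are 39 mouse genes of homologous recombination and the Fanconi anemia pathway. The list was drawn up by gene name and function, with no threshold on measured values, but with earlier results of these data known. Each name was matched to a single identifier among the 78334 in the table of gene counts. All 39 were found and all 39 passed the filter on low counts in both sequencing runs. Homologous recombination repairs a broken chromosome by copying the intact sister: MRE11, RAD50, NBN, CtIP (Rbbp8) and EXO1 trim the ends, BRCA1, PALB2 and BRCA2 act in the search for the intact copy, and BLM, MUS81 and their partners take the joined molecules apart. The Fanconi core complex and the ubiquitin-conjugating enzyme UBE2T mark the FANCD2-FANCI pair at DNA crosslinks, and the repair that follows draws on the same recombination proteins. In dividing smooth muscle cells, as in other cells, this machinery works mainly in S and G2 phase, when a sister chromatid is present.

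RNA was sequenced from 30 libraries of cultured cells labelled mouse aortic smooth muscle, in 9 groups; the growth protocol names mouse and rat cells together, and the species of the culture was not tested. Every group was held without serum for 48 h and was transfected for at least 24 h with either an antisense GapmeR, which directs cleavage of the RNA it binds, or a plasmid. Run 2 held an antisense control and a group labelled as knockdown of total CASC15, a long noncoding RNA (2 libraries each), and a plasmid control and an overexpression of total CASC15 (3 each). Run 3 held 4 libraries of each of 5 groups: antisense control cells left untreated, given angiotensin II at 10 ng/ml for 24 h, or given the growth factor PDGF-BB at 10 to 30 ng/ml for 24 h, and 2 groups in which long CASC15 was knocked down, 1 without treatment and 1 given angiotensin II. No knockdown group received PDGF-BB. The sample titles disagree with this naming of the target: within and across groups they count upward from CASC15 as far as CASC22, and all 4 untreated long knockdown titles carry a number other than 15. Groups were therefore taken from the library names, which give the same target code to every library of a group. Each library is also labelled with 1 of 4 batches (P16, P17, P18 or P19), with at most 1 library of a group in each. Nothing says whether the batches were separate cell isolates, so p-values measure the spread between these libraries, which may be technical.

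Summed counts per library ranged from 18007199 to 21881959 in run 2, and in run 3 from 15771490 to 30362047. The target was read as the gene 2610307P16Rik: it was at 5.52 ± 0.53 CPM (each gene’s share of the library, scaled to a common depth; SD, n = 4) in untreated control cells and 2.87 ± 0.561 after long knockdown, and at 6.42 ± 2.34 with the control plasmid and 716.4 ± 174 (SD, n = 3) with overexpression. In the libraries labelled total knockdown it averaged 9.01 CPM, against 7.02 in their controls (log2 fold change 0.36, adjusted p = 0.74, edgeR), so the target was not lower there at gene level. Of 8 smooth muscle markers, Acta2, Cald1, Smtn and Tpm2 were present in every library. Cnn1 stayed at or below 0.224 CPM, Lmod1 at or below 1.77, Tagln at or below 3.45 and Myh11 at or below 6.67. Of the fibroblast markers, Col1a1 and Dcn were abundant, while Dpt stayed at or below 0.948 CPM and Lum at or below 5.17. Pdgfra ranged from 1.83 to 65.7 CPM and Pi16 from 2.7 to 77.5. The P19 libraries stood apart: P19 held the highest mean member level in 7 of the 7 groups that have a P19 library, and the highest mean of 20 cell cycle genes in the same 7. Results are therefore given also without P19, and with batch as a replicate block.

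Promoters are shown because they let the strongly and the weakly changed members be compared at sequence level. RefSeq windows on GRCm38.p6, from 250 bases before to 50 after the annotated start, were held for 30 of the 39 members. Capitals mark a match to 1 of 4 E2F words (TTTCCCGC, TTTCGCGC, TTTGCCGC or TTTGGCGC, either strand); E2F factors bind such sites in genes of DNA replication. Bard1 (chr1:71102923-71103222, minus strand) and Brca2 (chr5:150522371-150522670, plus strand) carry a match and rose with PDGF-BB. Fancg (chr4:43010252-43010551, minus strand) carries a match and changed little, and Fanci (chr7:79392088-79392387, plus strand) rose strongly without one.
Bard1: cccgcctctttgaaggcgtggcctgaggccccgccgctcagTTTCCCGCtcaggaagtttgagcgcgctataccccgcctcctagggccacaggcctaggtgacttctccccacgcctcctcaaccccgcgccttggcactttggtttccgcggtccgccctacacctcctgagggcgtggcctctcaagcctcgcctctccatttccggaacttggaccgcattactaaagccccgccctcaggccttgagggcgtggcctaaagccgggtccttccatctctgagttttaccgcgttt
Brca2: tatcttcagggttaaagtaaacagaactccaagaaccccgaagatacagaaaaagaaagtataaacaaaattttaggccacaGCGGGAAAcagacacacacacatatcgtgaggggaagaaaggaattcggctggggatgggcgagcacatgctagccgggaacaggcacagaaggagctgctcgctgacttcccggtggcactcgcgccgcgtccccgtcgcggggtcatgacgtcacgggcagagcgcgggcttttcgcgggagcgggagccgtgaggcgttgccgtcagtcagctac
Fancg: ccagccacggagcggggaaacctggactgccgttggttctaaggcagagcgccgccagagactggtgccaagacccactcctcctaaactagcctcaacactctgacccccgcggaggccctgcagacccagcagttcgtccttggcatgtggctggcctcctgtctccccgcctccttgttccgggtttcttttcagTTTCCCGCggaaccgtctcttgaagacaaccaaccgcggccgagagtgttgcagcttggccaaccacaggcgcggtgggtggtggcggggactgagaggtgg
Fanci: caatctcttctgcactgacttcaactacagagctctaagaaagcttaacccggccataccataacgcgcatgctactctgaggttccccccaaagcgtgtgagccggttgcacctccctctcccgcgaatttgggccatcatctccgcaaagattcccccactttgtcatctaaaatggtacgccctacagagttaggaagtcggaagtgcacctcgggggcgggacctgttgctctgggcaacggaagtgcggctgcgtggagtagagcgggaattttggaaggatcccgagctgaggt
An E2F word was found in 5 of the 30 member promoters (16.67%), against 2.6% of the 27025 genes in the table. The 5 were Bard1, Brca2, Rad51c, Fancg and Rmi1. A 7-letter form without the first T, added after the 8-letter result was seen, was found in 18 of 30 (60.0%), against 10.86% of all genes. Fanci and Brca1 hold the short form only. The short form was in 11 of 15 members with a log2 fold change of at least 1 under PDGF-BB and in 7 of 15 of the others, and the long form in 3 of 15 and 2 of 15. CCAAT was in 60.0% of member windows and 41.06% of all, and the CHR words TTTGAA or TTCGAA in 16.67% and 21.66%. Member windows were also richer in G and C, with a median of 59.7% against 52.8% (genes with several windows averaged). These matches describe letters in a window and are not binding sites.

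PDGF-BB raised most of the 39 genes in control cells. Called at an adjusted p under 0.05 (edgeR quasi-likelihood test, Benjamini-Hochberg over 15103 genes), 33 rose and 0 fell, against 23.6% of all genes tested that rose and 20% that fell. The median log2 fold change was 1.25 over the members and -0.02 over all genes. In 30 members the 4 treated libraries lay above all 4 untreated ones, as did 22.7% of all genes. With the replicate block 35 rose and 0 fell (28.3% and 26.2% of all genes), the added genes being Atm and Nbn, and without P19 33 rose (25.4% of all genes). The rise spanned a wide range: 21 members changed by a log2 of at least 1, 15 by at least 2 and 11 by at least 3.

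**Figure D1:**
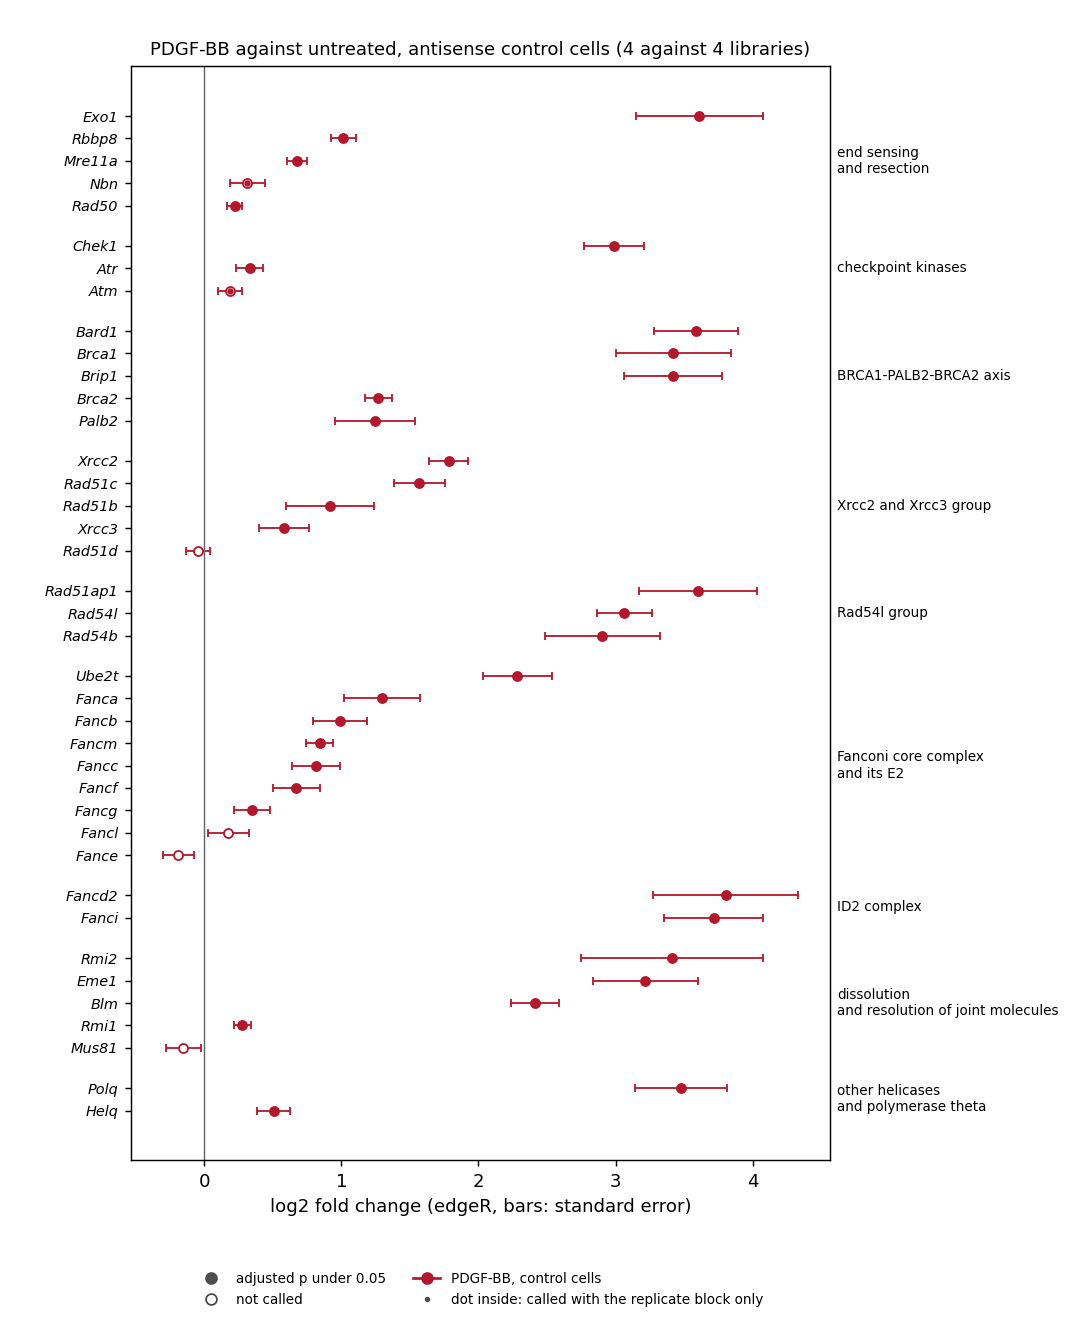
Log2 fold change with its standard error (x axis) for the 39 genes by role (y axis), PDGF-BB against untreated control cells, 4 libraries each; filled points have an adjusted p under 0.05 and a dot inside an open point marks a call made only with the replicate block. The points run from -0.19 for Fance to 3.80 for Fancd2.

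The 15 members that changed by a log2 of at least 2 had untreated means with a median of 2.0 CPM (0.207 to 6.75), and the other 24 a median of 12.1 CPM (0.634 to 108.2). The ranges overlap: Rad51b, Palb2, Rad51c, Fancf, Xrcc2, Fancc and Fancb, which changed by less, also started at or below 5.89 CPM. Under PDGF-BB the medians were 19.5 and 18.2 CPM. The untreated libraries enter both the level and the fold, so the order of the folds is not independent of the starting level. Per kilobase of exon, Rad50 was the most abundant member both untreated (20.1 ± 1.4 CPM per kb, SD, n = 4) and with PDGF-BB (23.5 ± 0.79). Nbn (8.27 ± 0.7) and Mre11a (7.35 ± 0.23) followed in untreated cells. Brca1 moved from 0.791 ± 0.29 to 8.58 ± 0.84 CPM per kb, near the 7.61 ± 0.76 of Atm.

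Among the genes of end sensing and resection, Exo1, a 5′ exonuclease, was at 1.3, 0.812, 1.4 and 3.25 CPM in the untreated libraries and 19.1, 20.1, 19.6 and 26.8 with PDGF-BB. The groups were far apart, with a log2 fold change of 3.61 ± 0.47 (standard error) and an adjusted p of 5.8e-06 (edgeR). Rbbp8, which encodes CtIP, the partner that starts resection, was at 24.6 to 29.1 CPM untreated and 51.9 to 58.7 treated, a log2 fold change of 1.01 ± 0.09. The MRN complex, which first holds the broken ends, changed less: Mre11a rose by a log2 of 0.67 and Rad50 by 0.22, both called. Nbn, the third subunit, was at 19.7 to 23.5 CPM untreated and 22.0 to 35.7 treated; the groups overlap, and the adjusted p was 0.0504 (edgeR), or 0.0084 with the replicate block.

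The checkpoint kinases divided in the same way. Chek1, which carries the S-phase checkpoint signal from ATR, was at 2.84 to 4.6 CPM untreated and 27.0 to 30.9 with PDGF-BB, a log2 fold change of 2.99 ± 0.22. Atr itself rose from 40.8 to 49.1 CPM to 55.7 to 61.1, a log2 fold change of 0.33 ± 0.1 with an adjusted p of 0.01 (edgeR). Atm, the kinase that answers double-strand breaks, overlapped between groups (59.3 to 77.9 and 71.2 to 89.3 CPM), with an adjusted p of 0.081 (edgeR), or 0.009 with the block.

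All 5 genes of the BRCA1-PALB2-BRCA2 axis rose. Brca1, a ubiquitin ligase subunit that promotes resection and recruits PALB2, was at 6.09, 4.6, 5.98 and 10.3 CPM untreated and at 65.2, 75.5, 70.2 and 81.9 with PDGF-BB, 10.7-fold higher on the fitted scale. Its partner Bard1 rose by a log2 of 3.59 ± 0.31 and the helicase Brip1 by 3.42 ± 0.36. Brca2, the last gene of the axis, started higher, at 16.9 to 19.1 CPM, and reached 41.5 to 46.2, a log2 fold change of 1.27 ± 0.1. It had the smallest p of the axis (adjusted p = 5e-09, edgeR). Palb2, the bridge between BRCA1 and BRCA2, was low throughout, at 1.39 to 3.07 CPM untreated and 4.09 to 5.9 treated.

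Rad54l, Rad54b and Rad51ap1, which act in strand invasion, all rose strongly. Rad54l, a DNA translocase, was at 1.68 to 2.99 CPM untreated and 16.2 to 20.6 treated, and had the smallest p of the 39 (log2 fold change 3.06 ± 0.2, adjusted p = 3.5e-10, edgeR). Rad51ap1 rose by a log2 of 3.60 ± 0.43. Rad54b rose by 2.90 ± 0.42, but shares 2068 exon bases with Fsbp on the same strand, so the counting divides reads between them; Fsbp was also called higher (0.206 to 1.93 CPM on average, log2 3.33). Rad54l shares 1184 exon bases with Lrrc41 on the opposite strand, which had a log2 fold change of -0.22 and was not called. Of the related genes Xrcc2, Xrcc3, Rad51b, Rad51c and Rad51d, which also act in strand invasion, Xrcc2 (log2 1.78), Rad51c (1.57), Rad51b (0.92) and Xrcc3 (0.58) rose. Of these, Rad51b lost its call under 8 of 16 other settings, among them the fit without P19 (adjusted p up to 0.099, edgeR), and Xrcc3 under 1. Rad51d stayed at 22.0 to 27.6 CPM untreated and 21.9 to 25.1 treated.

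The Fanconi genes ranged from the largest rise to none. Fancd2, a member of the pair that the core complex ubiquitinates, was at 2.56, 1.79, 2.24 and 5.25 CPM untreated and 43.5, 43.3, 42.0 and 40.7 treated, a log2 fold change of 3.80 ± 0.53. Its partner Fanci rose by 3.71 ± 0.36, and Polg, which shares exon bases with Fanci on the opposite strand, by 0.31. Ube2t, the ubiquitin-conjugating enzyme that acts on them, rose from 2.23 to 3.28 CPM to 11.4 to 14.3. Of the 8 core genes, Fanca rose the most (2.46-fold), and Fancb (log2 0.99), Fancm (0.84), Fancc (0.81), Fancf (0.67) and Fancg (0.35) were also called higher. Fancg lost its call under 7 of 16 other settings, 5 of them with 1 library left out. Fancl, the core's ubiquitin ligase subunit, overlapped between groups (7.72 to 9.28 and 6.67 to 11.8 CPM), and Fance had a log2 fold change of -0.19 with an adjusted p of 0.18 (edgeR).

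Among genes that undo joint molecules, Blm, a helicase, rose from 3.07 to 3.14 CPM to 13.7 to 18.7, and its partner Rmi2 rose from 0.207 to 2.39 CPM on average. Rmi1, another subunit of that complex, rose by a log2 of only 0.28 ± 0.06. It shares 330 exon bases with Hnrnpk on the opposite strand, which rose by a log2 of 0.29 (704 to 860 CPM on average). Reads from those bases cannot be told apart either, as the strand setting is not stated. Eme1, a cofactor of the nuclease MUS81, rose by 3.22 ± 0.38 while Mus81 overlapped (10.1 to 11.6 untreated, 8.53 to 11.1 treated). Eme1 shares 221 exon bases with Lrrc59 on the opposite strand, which also rose (125 to 284 CPM on average, log2 1.18), and without a stated strand setting reads from the shared bases cannot be told apart. Polq, the polymerase of an end-joining route that uses short repeats, rose from 0.758 to 2.2 CPM to 14.6 to 15.9. The helicase Helq rose by 0.51 ± 0.12.

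Other genes of the same pathways, from a list of 60 of which 59 were found, gave 35 higher and 2 lower of 59, with a median log2 fold change of 0.43. Topbp1, which activates ATR, had the smallest p (70.7 to 233 CPM on average), and Faap100, a core complex partner, the largest, with a log2 of 0.01. Of 12 end-joining genes, 5 were called higher and 1 lower, with a median of 0.09. Xrcc6, the Ku70 gene, rose from 45.1 to 64.7 CPM on average, and Polm had a log2 of 0.04. All 20 cell cycle genes rose, with a median of 3.27, and Mki67, a marker of cycling cells, went from 14.5 to 48.8 CPM to 353 to 391. Whether the members' rise is more cycling cells or more RNA in each cell cannot be told apart in bulk samples, and the part of cell cycle state in it was not tested. Smooth muscle markers moved in both directions with PDGF-BB: Acta2 was at 194 to 223 CPM untreated and 96.5 to 121 treated (log2 -0.94), and Cald1 was also called lower, while Smtn went from 42.2 to 50.0 CPM to 89.2 to 103 (log2 1.03) and Tpm2 was also called higher. Of 26 markers of smooth muscle, endothelial cells, fibroblasts and leukocytes, 15 passed the filter on low counts, 4 of which were called higher and 6 lower. Of the 5 fibroblast genes tested, Dcn (log2 -1.26), Pdgfra (-2.27) and Lum (-2.37) were lower and Col1a1 (0.49) and Pi16 (0.57) higher, and the summed level of the 6 listed overlapped, at 3036 to 4293 CPM against 3444 to 3938 untreated. The summed level of 8 smooth muscle markers was 752 to 868 CPM against 940 to 1164, and that of 6 endothelial markers 0.356 to 1.05 against 1.25 to 2.76. The part of these in the members' values was not tested. In a contrast added after the data were seen, PDGF-BB against angiotensin II in control cells, 32 members were higher and 0 lower (23% and 19.4% of all genes; with the block 34 and 0, against 28% and 25.7%); it shares the PDGF-BB libraries with the contrast above.

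Knockdown of long CASC15 in untreated cells lowered Fanca, Rbbp8 and Rad50 and raised Fancc and Rad51b. These 5 of 39 compare with 12.3% of all genes called higher and 12.8% called lower. With the replicate block, 2 were higher and 14 lower (20% and 20.6% of all genes), the added genes being Bard1, Brip1, Brca1, Fancb, Ube2t, Fancd2, Fanci, Rad51ap1, Chek1, Eme1 and Rmi1. Without P19 the counts were 3 and 15 (18.7% and 21.3% of all genes). Leaving out only the P19 library of the knockdown group gave 2 and 14 (14.8% and 16.9%), and leaving out the P17 library of control 2 and 6 (21.5% of all genes in either direction). The median log2 fold change was -0.11, and 23 members changed by less than 0.5 in size.

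**Figure D2:**
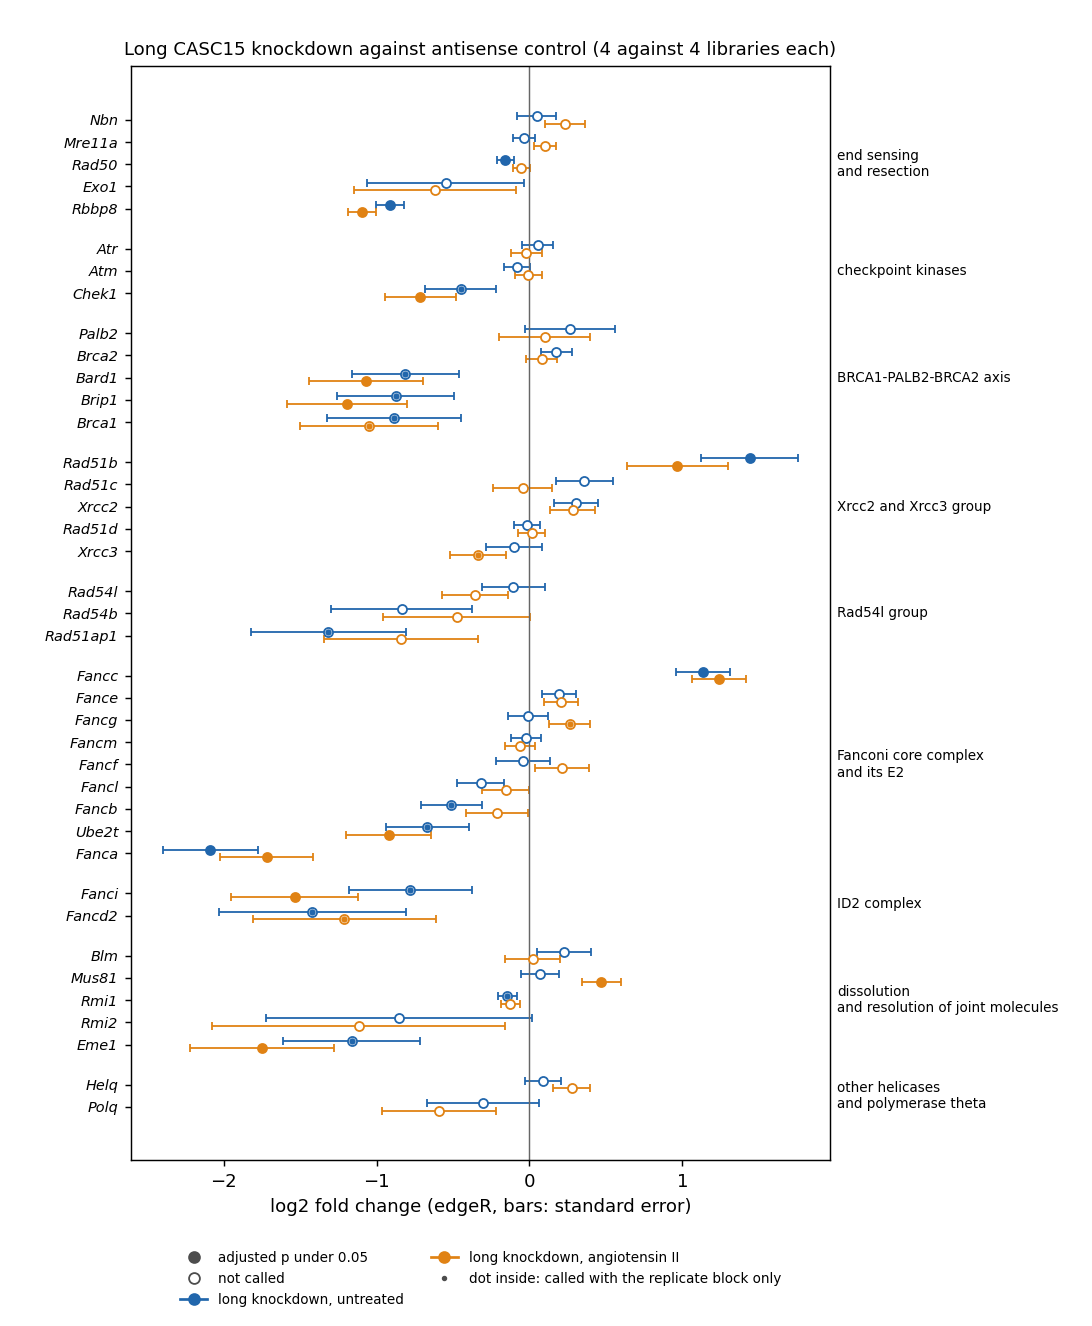
Log2 fold change with its standard error (x axis) for the 39 genes by role (y axis), long CASC15 knockdown against antisense control, untreated (blue) and with angiotensin II (orange), 4 libraries per group; filled points have an adjusted p under 0.05, and a dot inside an open point marks a call made only with the replicate block. Fanca and Rbbp8 lie on the left in both, Fancc and Rad51b on the right.

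Fanca, a scaffold of the core complex, was at 10.8, 9.1, 11.2 and 12.9 CPM in untreated control cells and 1.87, 1.61, 1.52 and 5.36 after knockdown. The groups did not overlap, the P19 library being the highest in both, and the log2 fold change was -2.09 ± 0.31 (adjusted p = 7.2e-05, edgeR). With angiotensin II the values were 12.5, 9.66, 12.7 and 12.1 in control and 2.67, 2.97, 2.7 and 5.88 after knockdown. Fanca shares 920 exon bases with Zfp276 on the opposite strand, and the use of strand in counting is not given in the sources used here. Zfp276 itself had a log2 fold change of -0.27 (adjusted p = 0.27, edgeR).

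Rbbp8 had the smallest p of the members in both arms. It was at 27.1, 24.6, 27.0 and 29.1 CPM in untreated control cells and 12.7, 16, 15.5 and 13.2 after knockdown, a log2 fold change of -0.91 ± 0.09 (adjusted p = 5e-07, edgeR). With angiotensin II the change was -1.10 ± 0.09. Rad50 fell by a log2 of only 0.16 on the fitted scale, and its call was lost when any of 5 single libraries was left out. Fancc, another core subunit, went the other way, from 6.05, 3.14, 6.63 and 4.64 CPM to 12.1, 10.4, 13.0 and 9.61 (log2 1.14 ± 0.18, adjusted p = 7.3e-05, edgeR). Fancc shares 1373 exon bases with Gm16133 and 185 with 2010111I01Rik, both on the opposite strand. 2010111I01Rik had a log2 fold change of -0.01, and no value is given here for Gm16133, the larger overlap. Rad51b was low, at 0.504 to 0.779 CPM in control and 1.33 to 2.5 after knockdown, without overlap (log2 1.44 ± 0.32, adjusted p = 0.0022, edgeR).

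**Figure D3:**
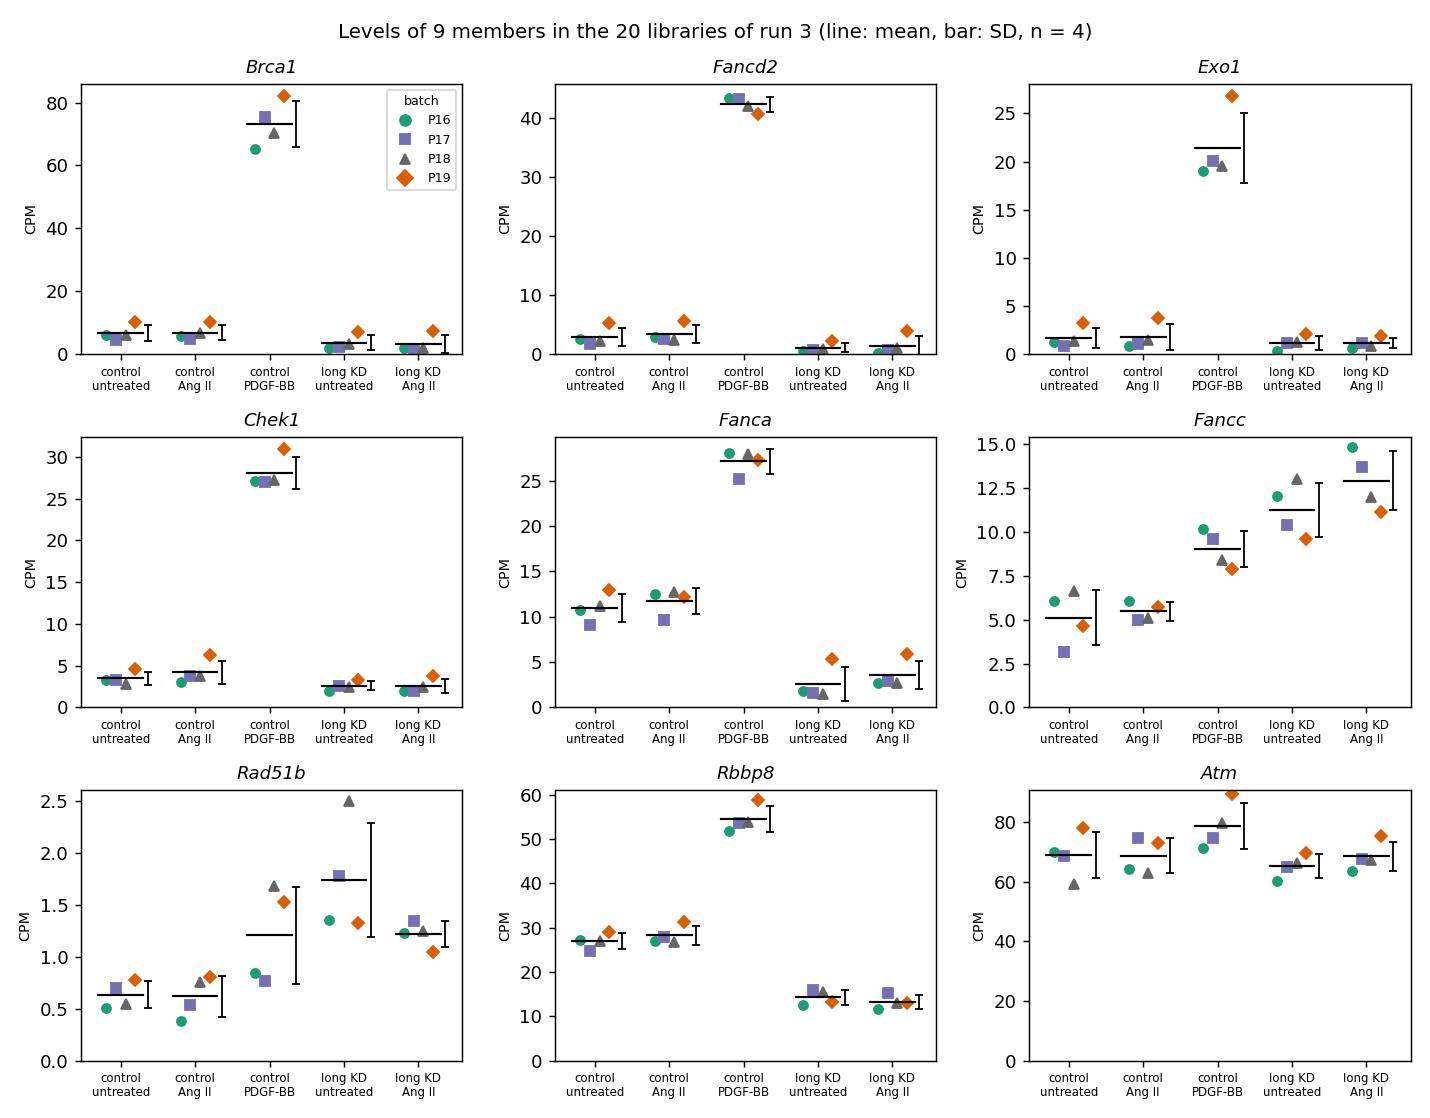
CPM (y axis, from 0) of 9 members in the 20 libraries of run 3 by group (x axis); point shape and colour give the batch, the line the mean and the bar the SD (n = 4). Brca1, Fancd2, Exo1 and Chek1 are highest with PDGF-BB among these 5 groups, Fanca and Rbbp8 are low in both knockdown groups, and Fancc is high in them.

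Brca1 and Fancd2 were lower in every batch after knockdown, with P19 the highest library in both groups. Brca1 was at 2.15, 2.34, 3.21 and 7.11 CPM after knockdown against 6.09, 4.6, 5.98 and 10.3 in control, a log2 fold change of -0.89 ± 0.44 with an adjusted p of 0.15 (edgeR), or 0.016 with the block. Fancd2 was at 0.514, 0.723, 0.979 and 2.33 against 2.56, 1.79, 2.24 and 5.25. The groups overlap for both genes. Rad51ap1 had a log2 fold change of -1.32 ± 0.51 (adjusted p = 0.065, edgeR) and Eme1 -1.16 ± 0.45 (0.063). Bard1, Chek1 and Ube2t were also lower in the fitted values, at -0.81, -0.45 and -0.67. Atr, Nbn, Palb2, Rad51d, Fancg, Mus81 and Helq had adjusted p from 0.55 to 0.98 (edgeR).

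With angiotensin II present in both groups, knockdown of long CASC15 gave 8 members lower and 3 higher, against 13.3% and 13.4% of all genes. The lower ones were Rbbp8, Fanca, Ube2t, Fanci, Eme1, Brip1, Bard1 and Chek1, and the higher ones Fancc, Rad51b and Mus81. With the block the counts were 11 lower and 4 higher (20.9% and 20.4% of all genes), and without P19 they were 11 and 4 (20.9% and 19%). Fanci was at 1.65 to 4.5 CPM in control and 0.565, 0.432, 0.699 and 1.84 after knockdown, a log2 fold change of -1.54 ± 0.42 (adjusted p = 0.01, edgeR). It shares 921 exon bases with Polg on the opposite strand, which was called higher (log2 0.26). Eme1 fell from 0.886, 0.931, 1.64 and 1.79 CPM to 0.205, 0.324, 0.25 and 0.747, without overlap, and Mus81 rose from 7.65 to 9.81 CPM to 10.4 to 15.5. Brip1 (-1.19 ± 0.39) and Bard1 (-1.07 ± 0.37) were called with and without the block. Each lost the call when any of 6 single libraries was left out, Brip1 also in 1 other setting and Bard1 in 2. Rad51b (log2 0.97) lost it when any of 5 was left out and in 2 other settings (adjusted p up to 0.11, edgeR). Chek1 and Ube2t lost it when any of 4 was left out, Chek1 also in 1 other setting. Fanci and Mus81 lost it when 1 particular library was left out. The count of 11 became 6 without the P19 library of control, or without the P16, P17 or P18 library of knockdown (19.8% to 21.4% of all genes called in either direction), and 7 without the P17 library of control (21.9%).

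The 2 comparisons of long knockdown use different libraries of the same batches. In both, 4 of the 39 members were called with the same sign (Rbbp8, Fanca, Fancc and Rad51b), against 20% of all genes. With the block there were 12, against 33% of all genes. Rbbp8, Fanca and Fancc kept their call in both under all 16 other settings run, and Rad51b only without treatment. Of the 59 other pathway genes, 9 were higher and 3 lower untreated and 10 and 5 with angiotensin II. Mdc1, which binds marked chromatin at breaks, had the smallest p untreated (55.7 to 71.7 CPM on average), and Rnf168 the largest. Of 12 end-joining genes, Xrcc5 and Prkdc were higher untreated, and Prkdc, Xrcc5 and Poll higher and Xrcc6 lower with angiotensin II. The 20 cell cycle genes gave 1 higher (Mcm7) and 3 lower in each arm (11 and 14 lower with the block). Mki67 was at 1.68, 3.56, 3.48 and 31.5 CPM after knockdown against 14.5 to 48.8 in untreated control. The part of cell cycle state in the members' lower values was not tested. Markers of cell types moved as well: of the 15 tested, 5 were called higher and 3 lower untreated, and 4 and 4 with angiotensin II. Untreated, the smooth muscle gene Smtn was at 42.2 to 50.0 CPM in control and 66.3 to 76.7 after knockdown. Myh11 was at 0.102 or less and at 0.265 to 1.36, both genes without overlap. Tpm2 was lower, at 38.2 to 39.2 CPM in control and 28.9 to 32.7 after knockdown. Cald1 was also lower, at 663 to 855 and 565 to 655, again without overlap for either gene. The summed smooth muscle level was 940 to 1164 CPM in control and 847 to 1013 after knockdown. The endothelial gene Vwf was called higher in both arms (0.144 to 0.688 CPM on average untreated), and the summed level of the 6 endothelial markers was 1.25 to 2.76 CPM in control and 1.96 to 3.88 after knockdown. Of the fibroblast genes, Pi16 (log2 -1.83) and Col1a1 (-0.64) were lower and Pdgfra (1.66) and Lum (2.06) higher untreated, and the summed fibroblast level was 3444 to 3938 CPM in control and 3167 to 3563 after knockdown. The summed level of 6 macrophage and leukocyte markers was 0.748 to 1.51 CPM in control and 0.544 to 2.71 after knockdown. The part of these in the members' values was not tested.

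**Figure D4:**
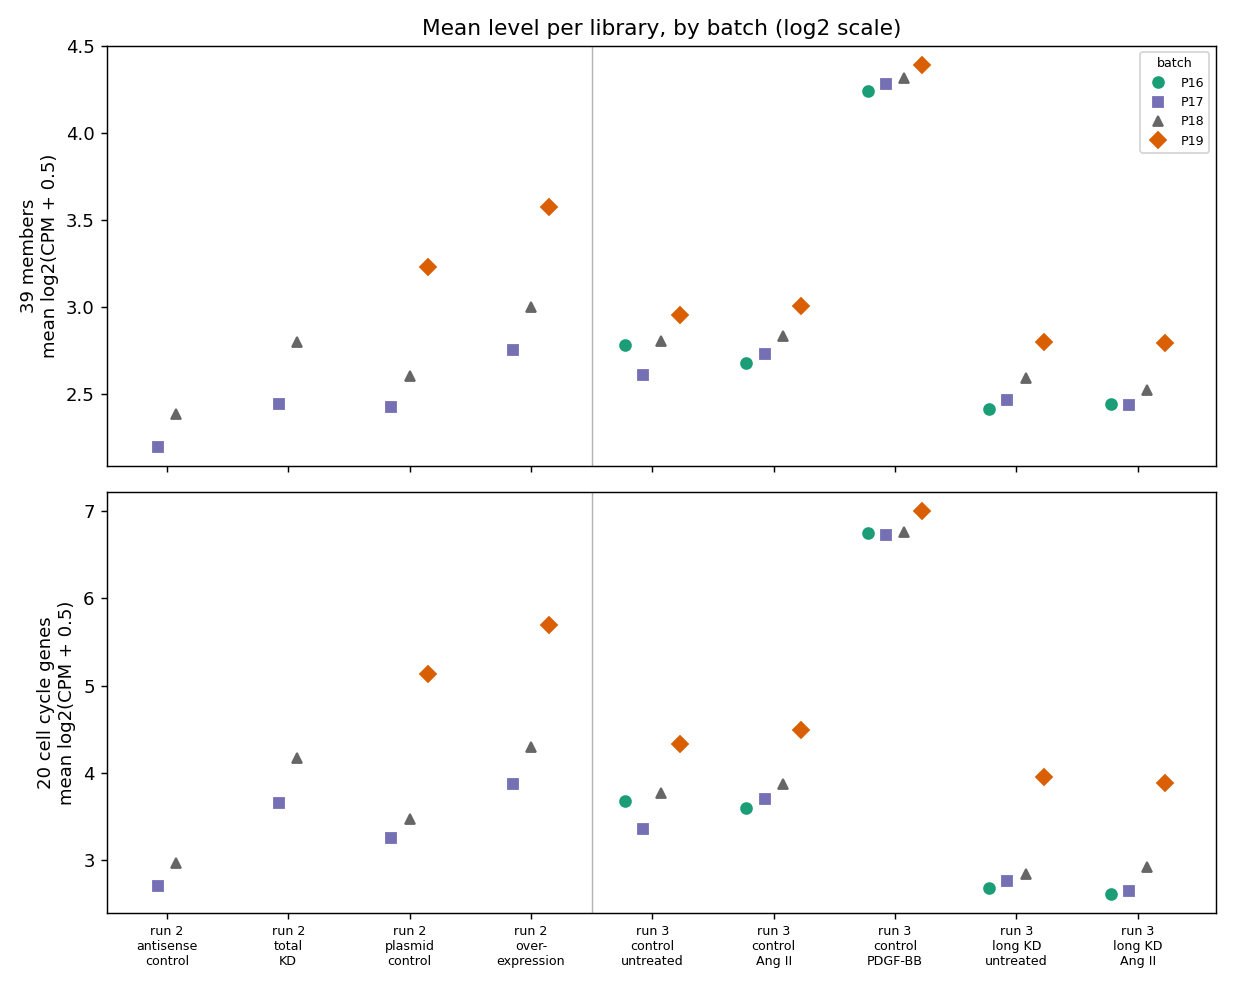
Mean log2(CPM + 0.5) per library (y axes) of the 39 members (top) and of 20 cell cycle genes (bottom) in the 9 groups (x axis), with batch by shape and colour. In 7 of 7 groups with a P19 library that library is the highest in both panels, and the PDGF-BB libraries lie above all others.

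Angiotensin II changed none of the 39 genes past the test. In control cells 0 were called by edgeR and 0 by DESeq2, with 1 at an unadjusted p under 0.05 (Mus81, 10.1 to 11.6 CPM untreated and 7.65 to 9.81 treated; 1.03% of all genes), and 0% of all genes were called by edgeR. In knockdown cells 0 were called by either tool and 0 had an unadjusted p under 0.05 (1.15% of all genes). For the interaction of knockdown and angiotensin II, 0 were called by either tool, and Mus81 alone was under 0.05 unadjusted (1.1% of all genes; log2 difference 0.40 ± 0.18). Brca1 was at 5.95, 4.71, 6.83 and 10.1 CPM with angiotensin II, overlapping its untreated values, and Fancd2 at 2.91, 2.65, 2.39 and 5.67.

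In run 2, the libraries labelled total knockdown of CASC15 gave 0 members called by edgeR and 0 by DESeq2, against 1.5% of all genes called higher and 0.56% lower. At an unadjusted p under 0.05 there were 2 (Brip1 and Fancl; 12.9% of all genes). With the replicate block 7 were higher and 0 lower: Brca1, Brip1, Chek1, Fancd2, Rad51ap1, Exo1 and Fanca, against 8.76% of all genes higher and 5.63% lower. Brca1 was at 2.05 and 2.37 CPM in control and 5.77 and 12.5 in the libraries labelled total knockdown, without overlap (log2 2.04 ± 0.93, adjusted p = 0.41, edgeR, or 0.00031 with the block). Chek1 was at 1.47 and 2.67 against 5.87 and 6.18, Brip1 at 1.34 and 1.43 against 3.81 and 5.91, and Exo1 at 0.624 and 0.445 against 1.3 and 3.58. Fanca was at 1.74 and 2.47 against 3.56 and 6.23. In 15 members both labelled libraries were above both controls, as in 26.4% of all genes. Xrcc2, Xrcc3, Rad51b, Rad51c and Rad51d all had fitted values below 0, none called. In simulated data 26.8% of 2-fold changes were recovered for this comparison and 48.9% for overexpression. A count of 0 members called therefore does not mean that none changed.

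Other transcripts moved with these 2 libraries. The summed level of 6 macrophage and leukocyte markers was 17.3 and 21.0 CPM, against 0.579 and 0.79 in their controls and 2.71 or less in every other library. It was mostly Cd68 (15.6 and 15.9 CPM) with Csf1r (1.25 and 4.52), while Ptprc and Cd3e were at 0. The summed level of 6 endothelial markers was 6.02 and 10.1 CPM, against 2.81 and 3.9 in their controls and 4.9 or less in every other library, mostly Vwf (3.51 and 6.14) and Pecam1 (2.01 and 3.27), neither called. Cd68, Csf1r and the smooth muscle gene Myh11 were called higher. Cell cycle genes were 0 called, or 16 higher of 20 with the block, and Mki67 was at 9.78 and 22.3 against 3.96 and 6.52 CPM. The part of any of these in the members' values was not tested.

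**Figure D5:**
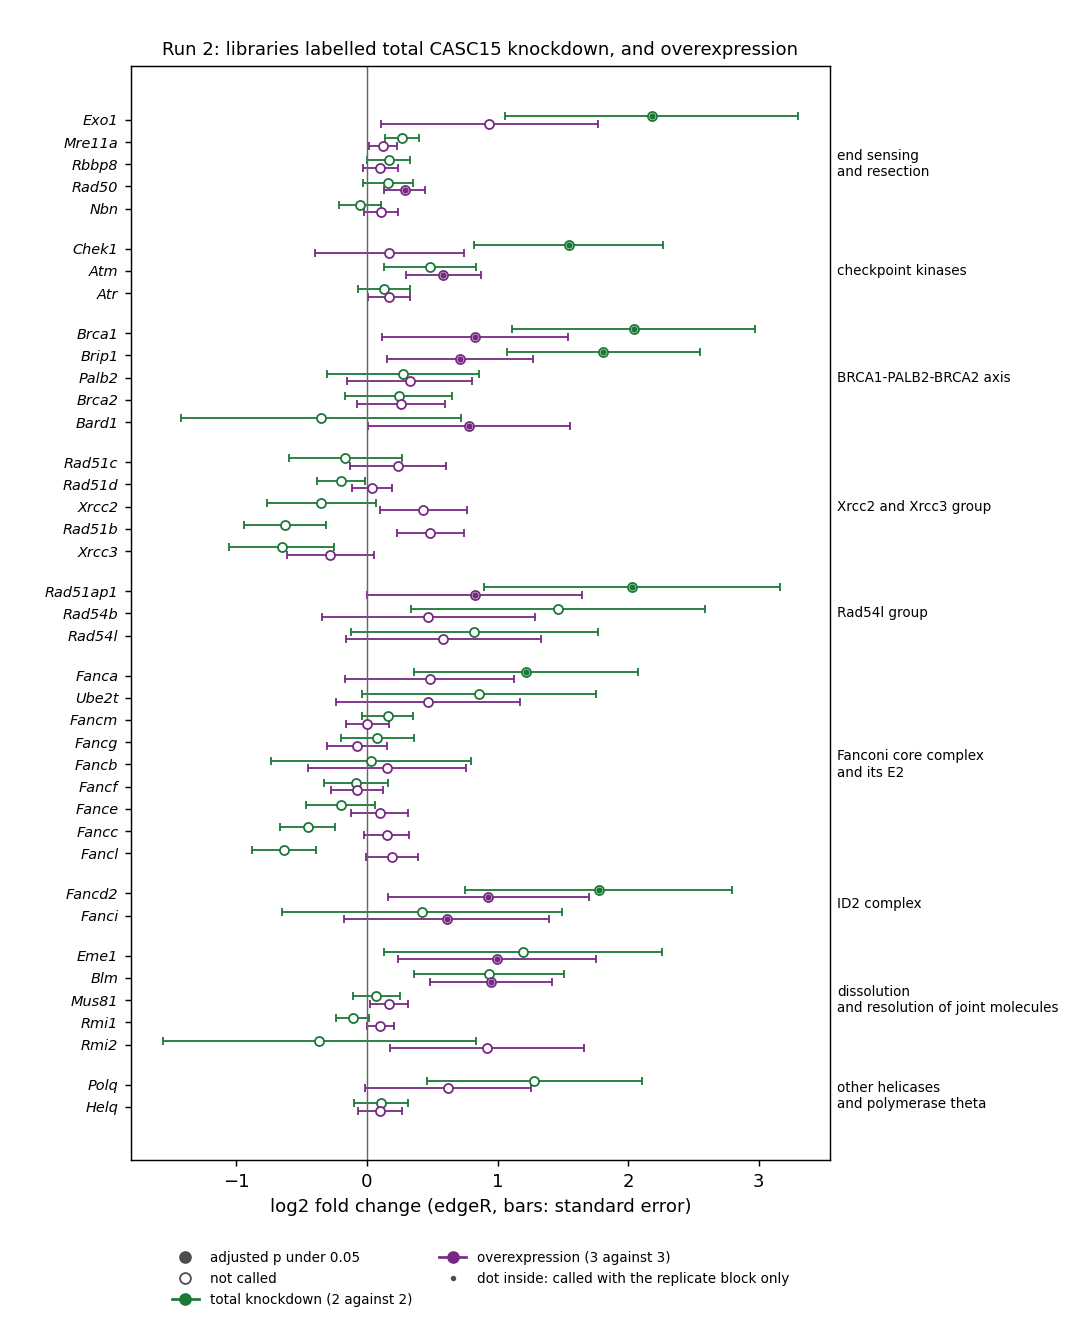
Log2 fold change with its standard error (x axis) for the 39 genes by role (y axis) in run 2: libraries labelled total CASC15 knockdown against antisense control (green, 2 against 2) and overexpression against plasmid control (purple, 3 against 3). All points are open, since 0 members were called without the block, and a dot inside marks those called with it (7 and 10).

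Overexpression of total CASC15 gave 0 members called by edgeR and 0 by DESeq2, with 0 at an unadjusted p under 0.05 (15% of all genes), against 1.09% of all genes called higher and 0.554% lower. With the block 10 were higher and 0 lower (9.4% of all genes higher, 8.33% lower): Brca1, Bard1, Brip1, Fancd2, Fanci, Rad51ap1, Atm, Blm, Eme1 and Rad50. Brca1 was at 3.11, 5.72 and 17.5 CPM in P17, P18 and P19 with the control plasmid and at 6.59, 9.93 and 30.0 with overexpression. Each overexpression library was above the control of its own batch while the groups overlap, and the log2 fold change was 0.83 ± 0.71 (adjusted p = 0.63, edgeR, or 0.004 with the block). Fancd2 was at 1.58, 3.3 and 9.92 against 3.89, 6.82 and 17.4. Fanci was at 1.13, 1.49 and 9.98 against 2.95, 5.08 and 11.1. Atm was at 36.0, 46.5 and 41.2 against 40.5, 87.6 and 57.5. In 22 members overexpression was higher in every batch, as in 26.9% of all genes. Without P19 1 was higher (2.92% of all genes), or 7 with the block (9.29%), and leaving out only the P19 plasmid control gave 1 higher (3.02%). Of the 20 cell cycle genes 0 were called, or 16 higher with the block. The summed smooth muscle markers were at 742, 840 and 1269 CPM in P17, P18 and P19 with the control plasmid and 709, 734 and 1111 with overexpression. The summed fibroblast markers were at 2739, 2917 and 3997 against 2971, 3112 and 4009. The part of cell cycle genes or markers in the members' values was not tested. Of the 59 pathway genes 1 was called in each run 2 comparison: Eme2 in the libraries labelled total knockdown (5.39 to 15.8 CPM on average) and Spidr with overexpression (28.6 to 72.1).

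The effect in the libraries labelled total knockdown was set against that of long knockdown. This compares log2 fold changes and does not test their signs, and no member was called in the labelled total knockdown without the block. In a contrast added after the data were seen, with both runs in 1 fit, the labelled total effect minus the long effect was called higher for Fanca (log2 difference 3.30 ± 0.82), Brip1, Chek1 and Rbbp8 and lower for Fancc and Rad51b (-2.08 ± 0.46). These 4 higher and 2 lower of 39 compare with 6.46% of all genes called higher and 6.74% lower. With run and batch as a block the counts were 15 higher and 2 lower, against 15.9% of all genes higher and 15.9% lower. Each effect is set against the control of its own run, but run and kind of knockdown cannot be told apart.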

How the data were processed

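RNA-seq of 30 libraries was analysed from a deposited gene table of expected counts; RSEM 1.3.1, STAR 2.7.11b, GRCm39 and mm10 are named, without a role, per the submitters' processing notes, and no annotation or strand setting is given in the sources used here. Expected counts divide reads that fit several genes. Here they were rounded, kept by filterByExpr (minimum count 10, minimum total 15; 15350 genes in run 2, 15103 in run 3), scaled by TMM and tested with edgeR 4.0.16 (R 4.3.3; quasi-likelihood, two-sided, Benjamini-Hochberg over all genes, threshold 0.05), all groups of a run in 1 fit, runs apart. Symbols came from GENCODE for 51486 of 78334 identifiers, holding 98.7% of counts. Values per library are CPM with TMM factors. Depth was 15771490 to 30362047 counts.

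Main fits had no block. The labels give same-numbered libraries of a run the same batch, so the batch pairs them; the mean correlation of deviations was 0.23 in the same batch and -0.121 in others in run 2, and 0.197 and -0.0606 in run 3. Blocked values stand beside the results. DESeq2 1.42.0, other scaling and filters, fits of only the compared groups, and fits without P19 or 1 library were alternatives. The 39 genes and the lists were chosen with earlier results of these data known. Values are given for the members with the smallest and largest p in a role and for others that a result turns on. Scripts were tested on simulated data. The E2F words were searched at 8 letters, and the 7-letter form was added after that result was seen.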

Additional observations from a re-analysis of the deposited data

Results flagged for a closer look

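In groups of 4, 12 of 195 combinations of member and group (6.15%) had 1 library far from the other 3; chance flags about 1 in 20. Of the 12, 10 are P19 libraries.

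With PDGF-BB, Exo1 (26.8 CPM) and Chek1 (30.9 CPM) stood high in P19 and Bard1 stood low in P18 (17.5 CPM). In control cells with angiotensin II, Fancd2 (5.67 CPM) and Blm (3.88 CPM) stood high in P19 and Brca2 (22.2 CPM) in P17. After long knockdown with angiotensin II, Brca1 (7.42 CPM) and Fanca (5.88 CPM) stood high in P19. After long knockdown without treatment, Fanca (5.36 CPM), Ube2t (2.97 CPM), Fanci (2.18 CPM) and Rmi2 (0.425 CPM) stood high in P19.

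The effect in the libraries labelled total knockdown differed from that of long knockdown, by edgeR's test of the difference in log2 fold change, for Fanca (3.30), Brip1 (2.67), Chek1 (1.98), Rbbp8 (1.06), Fancc (-1.61) and Rad51b (-2.08). The runs differ along with the knockdowns.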

How the results depend on the processing

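For PDGF-BB, 31 to 35 members were called under every setting run, and for the 2 angiotensin II comparisons and the interaction 0 under every setting run. For long knockdown without treatment the count of 5 became 16 with the replicate block, 18 without P19 and 18 without P19 and with the block. It became 4 to 16 when 1 library was left out. The share of all genes called rose as well, from 12.3% higher and 12.8% lower to 20% and 20.6% with the block. Shares without P19 and for some left-out libraries stand above. The others, among them that without P19 and with the block, are not given here, so those counts are not read as results about the members. For long knockdown with angiotensin II the count of 11 (13.4% of all genes higher and 13.3% lower) became 6 to 14 when 1 library was left out. The shares of all genes for the lowest counts stand above and that for 14 is not given here, so the range is not read as a result about the members. For overexpression the count of 0 became 2 without a filter on low counts (4.56% of all genes called), 10 with the block, 1 without P19, 7 without P19 and with the block, and 0 to 1 when 1 library was left out. For the libraries labelled total knockdown the count of 0 became 7 without a filter (4.44% of all genes), 7 with the block (14.4%) and 3 with only the compared groups in the fit (7.34%). The cause of these shifts was not tested. No called member changed sign; under at least 1 left-out library the call was lost for Rad50 (untreated long knockdown), for Bard1, Brip1, Chek1, Rad51b, Ube2t, Fanci and Mus81 (long knockdown with angiotensin II) and for Fancg, Rad51b and Xrcc3 (PDGF-BB). Apart from left-out libraries, calls were also lost without a filter on low counts, with only the compared groups in the fit or without P19. The fit without P19 and with the block, the 7-letter E2F form and the 2 added contrasts were chosen after the data were seen. Members near 1 CPM, such as Rmi2, Rad51b and Eme1, are limited by depth.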
